A study of Mus musculus with 11 samples.

Results

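Ras family GTPases and their GTPase-activating proteins were examined in anchorage-independent colonies and monolayers of mouse JB6 skin cells. The genes were Rras2, Rras, Mras, Hras and Nras, which encode small GTPases, and Rasa1 and Nf1, which encode negative regulators of them. Members were the probe sets annotated to exactly 1 of these symbols, and the genes were selected on a measured result, the lower Rras2 signal of both colony types, with the levels of the 4 groups known; all values of the members are therefore a description with no test. The arrays held 12 such probe sets for 6 of the 7 genes, among 20380 probe sets annotated to 1 gene and 12393 genes in all; Hras was not analysed here.

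JB6 is an established line of mouse epidermal cells used to study tumour promotion, and Affymetrix arrays measured total RNA from 11 samples in 4 groups. RT101 colonies (n = 3) were grown over soft agar from RT101, a tumour variant of JB6 that received no treatment, and RT101 monolayers (n = 2) were the same cells grown as attached sheets. JB6 colonies (n = 3) came from the parental clone 41-5A in agar with basic fibroblast growth factor (bFGF) at 10 ng/ml, and JB6 monolayers (n = 3) are labelled bFGF-treated with no dose stated. Both colony types were harvested on day 7.

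The design sets colonies against monolayers within each line; the study's title calls 1 kind of growth reversible and the other irreversible. RT101 is 1 tumour variant and 41-5A is 1 clone, so a difference between them belongs to these 2 lines, and line and bFGF treatment cannot be told apart. Because the labels do not say that replicates came from separate cultures, p-values describe the variation among these arrays alone, and that variation may be technical. In whole-colony RNA, a lower signal from fewer cells with a transcript and from less RNA per cell cannot be told apart.

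Ras proteins are membrane-anchored switches: exchange factors such as the Sos proteins load them with GTP, and GTPase-activating proteins such as Rasa1 and neurofibromin (Nf1) return them to the GDP-bound state. GTP-bound Ras recruits Raf kinases, phosphoinositide 3-kinase and Ral exchange factors, and growth factor receptors, among them those for bFGF, feed into the switch. Rras, Rras2 (also called TC21) and Mras form the R-Ras subgroup, while Hras and Nras are classical Ras proteins; activating Ras mutations are a hallmark of chemically induced mouse skin tumours.

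Values are log2 robust multi-array average (RMA) signals, so a difference of 1 is a doubling; each gene is given by its brightest probe set unless another is named, and levels are compared within a probe set only. Array medians lay between 5.82 and 5.95, and lower quartiles between 3.78 and 3.91. The Gapdh control probe sets gave 3′ minus 5′ differences of 0.354 in JB6 colonies replicate 3 and 0.194 in JB6 monolayer replicate 1, against -0.083 to -0.014 in the other arrays. Some of the values that depend on these 2 arrays are also given without them. Of 8 keratinocyte markers, 5 (Krt1, Krt14, Cdh1, Dsp and Trp63) lay at or below the arrays' lower quartile in every group, while Krt5, Krt10 and Sfn lay above it. Krt10 averaged 7.35 in JB6 colonies, 6.81 in JB6 monolayers, 5.24 in RT101 colonies and 5.08 in RT101 monolayers. In JB6 colonies Krt10 rose by 0.54 and Krt1 by 0.36 (limma adjusted p = 0.00528 and 0.00951). No keratinocyte marker was called in RT101 colonies. The 5 mesenchymal markers averaged 9.18 to 9.28 in RT101 colonies against 8.43 to 8.50 in RT101 monolayers. They averaged 9.02 to 9.26 in JB6 colonies against 8.86 to 9.01 in JB6 monolayers. Of those 5, 2 rose in RT101 colonies, Pdgfrb by 3.07 (limma adjusted p = 4.67e-10) and Col1a1 by 0.69 (0.0255), while 3 rose and 1 fell in JB6 colonies; Thy1 had group means of 3.43 to 3.67, below the lower quartiles. The 8 macrophage markers averaged 4.83 to 4.96 in JB6 colonies against 4.44 to 4.53 in JB6 monolayers, with 4.12 to 4.21 for RT101 colonies and 4.07 to 4.10 for RT101 monolayers, and their part in the results was not tested. Of those 8, 3 rose in JB6 colonies, Cd68 (8.31 in JB6 colonies against 6.45 in JB6 monolayers), Csf1r (5.98 against 5.06) and Lyz2 (4.69 against 4.34), and 2 rose in RT101 colonies, Lyz2 and Cd14, while Ptprc and Adgre1 had group means of 2.34 to 2.53 and 3.02 to 3.31, below the lower quartiles.

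The promoters of Rras2 and Nras are shown because these 2 genes had lower signals in both colony types on each of their probe sets. Each sequence is the 250 bases before the annotated start, 5′ to 3′ on the gene's strand, from RefSeq on GRCm38.p6. Capitals mark the GC box GGGCGG on either strand, the core of the site for Sp-family factors.
Rras2 (chr7:114117782-114118031, minus strand): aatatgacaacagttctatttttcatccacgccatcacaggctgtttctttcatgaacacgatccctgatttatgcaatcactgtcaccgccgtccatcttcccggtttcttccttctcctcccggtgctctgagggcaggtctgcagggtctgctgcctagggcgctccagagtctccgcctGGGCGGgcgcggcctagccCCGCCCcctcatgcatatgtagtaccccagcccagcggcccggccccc
Nras (chr3:103058035-103058284, plus strand): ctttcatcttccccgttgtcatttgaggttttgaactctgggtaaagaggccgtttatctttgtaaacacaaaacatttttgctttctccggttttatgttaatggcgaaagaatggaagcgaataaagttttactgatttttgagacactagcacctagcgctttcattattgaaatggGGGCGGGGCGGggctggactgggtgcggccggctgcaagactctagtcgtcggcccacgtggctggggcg
Both windows held 2 GC boxes, on opposite strands in Rras2 and on the gene's own strand in Nras, where they overlap by a base. Of 32851 mouse promoter windows of this length, 32.7% held at least 1 GC box, and among the other members it was also found for Mras, Hras and Rasa1. The Nras window also held 1 E-box (CACGTG, present in 6.0% of windows), the core bound by Myc and related factors, which was not found in that of Rras2. The AP-1 site TGANTCA, the TEAD site GGAATG, the CCAAT box and the ETS core CCGGAA, searched on both strands, were in neither window; 6.7%, 12.6%, 33.8% and 12% of all windows held them. These matches describe the letters of the windows.

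Rras2 signals were lower in colonies than in monolayers in both lines, and higher in RT101 than in JB6 cells in both growth forms. Rras2 read 7.76, 7.71 and 7.82 in RT101 colonies, against 9.86 and 9.98 in RT101 monolayers. It read 6.94, 6.64 and 6.78 in JB6 colonies, against 7.95, 8.06 and 8.18 in JB6 monolayers. Within each line every colony array was below every monolayer array.

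The colony minus monolayer difference of Rras2 was -2.16 (SE 0.11) in RT101 cells, or 4.46-fold lower, and -1.28 (SE 0.10) in JB6 cells, or 2.43-fold lower. The change was thus 0.88 further down in RT101 cells (RT101 minus JB6, -0.88, SE 0.14). Without the 2 arrays of raised 3′ signal the changes were -2.16 and -1.33.

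The order of Rras2 levels was RT101 monolayers (9.92 ± 0.08, SD, n = 2), JB6 monolayers (8.06 ± 0.11, n = 3), RT101 colonies (7.76 ± 0.06, n = 3) and JB6 colonies (6.79 ± 0.15, n = 3). No neighbouring groups overlapped on this probe set, although JB6 monolayers and RT101 colonies were close. RT101 cells were higher than JB6 cells by 1.86 in monolayers, which is 3.62-fold, and by 0.98 in colonies, which is 1.97-fold.

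The second Rras2 probe set read 7.35, 7.21 and 7.29 in RT101 colonies, against 9.32 and 9.20 in RT101 monolayers. It read 5.89, 6.11 and 6.50 in JB6 colonies, against 7.29, 7.07 and 7.16 in JB6 monolayers. Its changes were -1.98 (SE 0.15) in RT101 and -1.0 (SE 0.13) in JB6 cells, the same directions as the first. On this probe set RT101 colonies and JB6 monolayers overlapped, so the order of those middle groups is not settled.

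**Figure D1:**
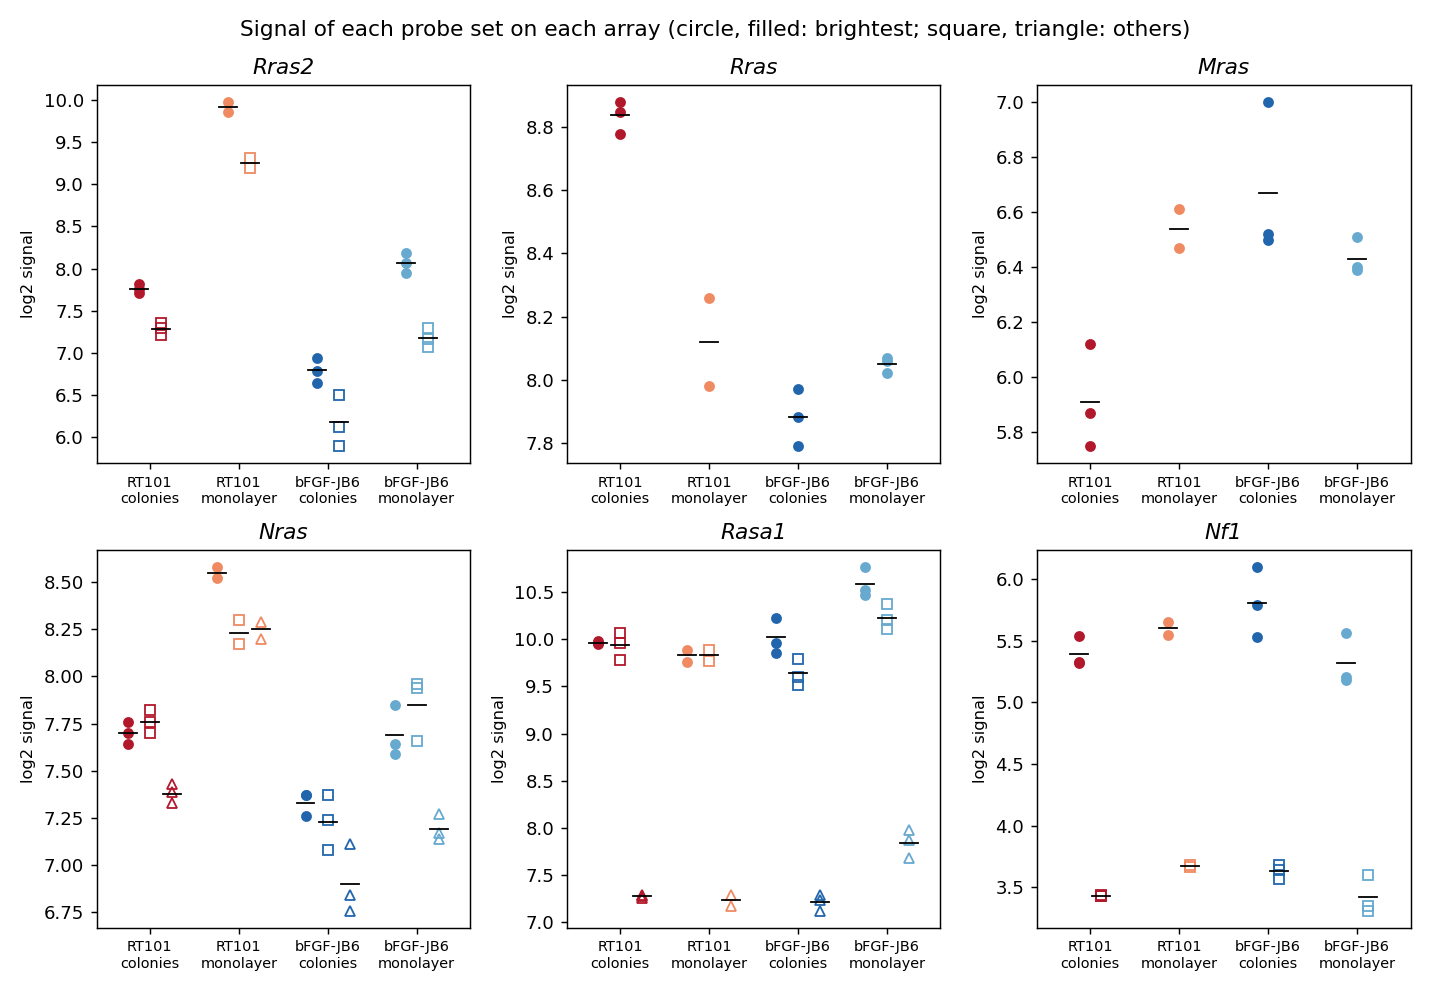
Log2 RMA signal of all 12 probe sets of the 6 measured members in RT101 colonies, RT101 monolayers, JB6 colonies and JB6 monolayers (bFGF-JB6 on the axes). Points are arrays (filled circles for the brightest probe set, open marks for others) and short lines are group means; on the brightest Rras2 probe set arrays lie at 7.71 to 7.82 in RT101 colonies and 9.86 to 9.98 in RT101 monolayers.

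Rras, the R-Ras protein known for its effects on integrin-mediated adhesion, had its high values in RT101 colonies. Its single probe set read 8.85, 8.78 and 8.88 in RT101 colonies, against 7.98 and 8.26 in RT101 monolayers. It read 7.97, 7.79 and 7.88 in JB6 colonies, against 8.07, 8.02 and 8.06 in JB6 monolayers. The groups of each line did not overlap, but the differences ran in opposite directions: 0.72 (SE 0.10, 1.64-fold higher) in RT101 colonies and -0.17 (SE 0.09) in JB6 colonies. The 2 RT101 monolayer arrays spread by more than any other group, and the RT101 difference was 0.58 without replicate 1 and 0.86 without replicate 2.

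Mras, an R-Ras subgroup member that forms a complex with Shoc2 and the phosphatase PP1 acting on Raf, was lowest in RT101 colonies. Mras read 6.12, 5.87 and 5.75 in RT101 colonies, against 6.47 and 6.61 in RT101 monolayers, a difference of -0.62 (SE 0.15) with no overlap. It read 7.00, 6.50 and 6.52 in JB6 colonies, against 6.51, 6.40 and 6.39 in JB6 monolayers. The JB6 groups overlapped only through JB6 monolayer replicate 1 (6.51), 1 of the 2 arrays of raised 3′ signal. The difference of 0.24 (SE 0.13) ranged from 0.08 to 0.35 over the alternatives. It was 0.08 without JB6 colonies replicate 1, the high array.

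Nras, a classical Ras protein, was lower in colonies of both lines, as Rras2 was, by a smaller amount. Nras read 7.76, 7.70 and 7.64 in RT101 colonies, against 8.58 and 8.52 in RT101 monolayers, a difference of -0.85 (SE 0.10, 1.8-fold lower). It read 7.26, 7.37 and 7.37 in JB6 colonies, against 7.85, 7.64 and 7.59 in JB6 monolayers, a difference of -0.36 (SE 0.09, 1.28-fold lower). Neither pair of groups overlapped. The other 2 Nras probe sets gave -0.47 and -0.86 in RT101 colonies and -0.62 and -0.29 in JB6 colonies, so the 3 probe sets did not rank the lines alike.

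Rasa1, the p120 Ras GTPase-activating protein, was lower in JB6 colonies than in JB6 monolayers. Rasa1 read 9.96, 9.86 and 10.23 in JB6 colonies, against 10.77, 10.47 and 10.52 in JB6 monolayers, a difference of -0.57 (SE 0.11, 1.48-fold lower) with no overlap. Its other 2 probe sets gave -0.60 and -0.63. In RT101 cells Rasa1 read 9.95, 9.96 and 9.98 in colonies, against 9.89 and 9.76 in monolayers, a difference of 0.14 (SE 0.12), with 0.10 and 0.04 on the other probe sets. The RT101 colony arrays lay just above the monolayer arrays on the brightest probe set.

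Nf1, the neurofibromin gene mutated in neurofibromatosis, had signals below the median gene on its brighter probe set. Nf1 read 5.54, 5.33 and 5.32 in RT101 colonies, against 5.65 and 5.55 in RT101 monolayers, a difference of -0.21 (SE 0.16); the colony arrays lay just below the monolayer arrays. It read 5.53, 6.10 and 5.79 in JB6 colonies, against 5.56, 5.18 and 5.21 in JB6 monolayers, a difference of 0.49 (SE 0.14). The groups overlapped only through JB6 monolayer replicate 1 (5.56), 1 of the 2 arrays of raised 3′ signal. Over the alternatives the JB6 difference ranged from 0.34 to 0.62. The second Nf1 probe set lay at 3.31 to 3.68 on the 11 arrays, near their bottom, and gave -0.24 in RT101 and 0.22 in JB6 cells.

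**Figure D2:**
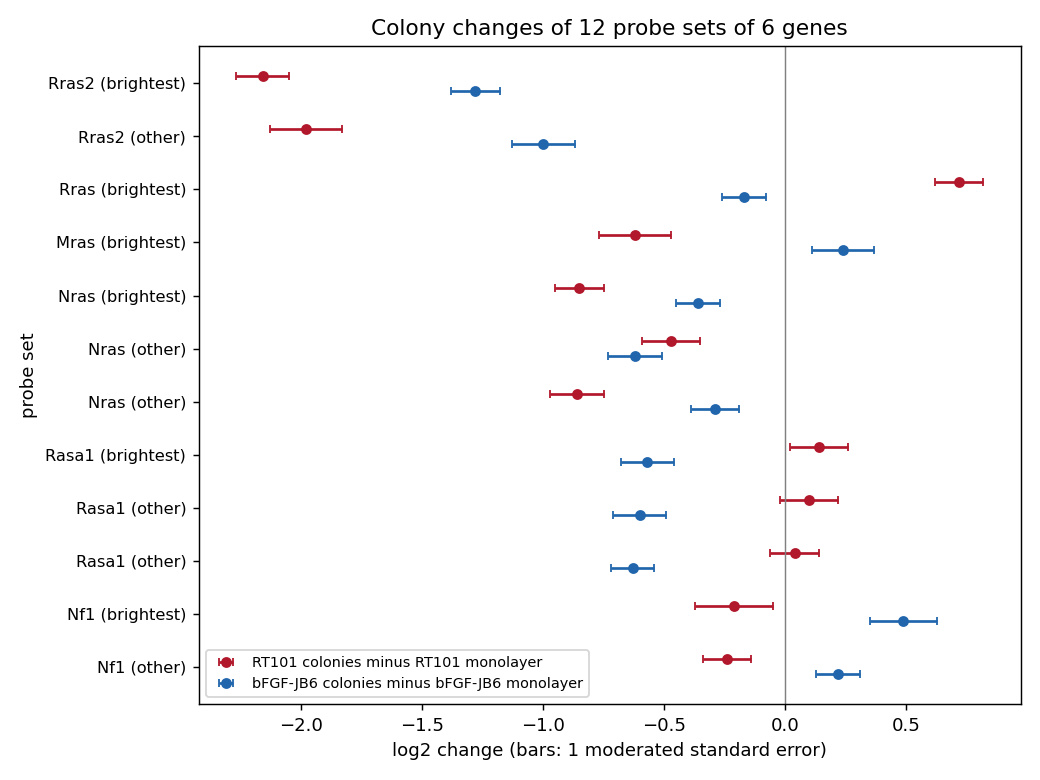
Log2 change, colonies minus monolayer, of each of the 12 probe sets of the 6 measured members in RT101 and JB6 (bFGF) cells, with the standard error of the fit. Both Rras2 probe sets and the 3 Nras probe sets lie below 0 in both lines, while Rras lies at 0.72 in RT101 and -0.17 in JB6 cells.

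The lines were compared within each growth form for the 6 measured members. In monolayers the arrays of the lines lay apart for 3 of the 6: Rras2 and Nras were higher and Rasa1 lower in RT101 cells. By a different measure, a limma adjusted p under 0.05, 44.4% of all genes differed (23.2% higher and 21.2% lower in RT101). The share of all genes whose arrays lay apart was not counted, so the count of members has no like share beside it. Nras averaged 8.55 ± 0.05 in RT101 monolayers (SD, n = 2) and 7.69 ± 0.14 in JB6 monolayers (n = 3), a difference of 0.86 (SE 0.10). Its other probe sets gave 0.38 and 1.05, also with the lines apart.

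Rasa1 averaged 9.83 ± 0.10 in RT101 monolayers (n = 2) and 10.59 ± 0.16 in JB6 monolayers (n = 3), a difference of -0.76 (SE 0.12). Its other probe sets gave -0.40 and -0.61, and the lines lay apart on all 3. The other members overlapped between the monolayers of the lines: Rras differed by 0.07 (95% interval -0.15 to 0.29), Mras by 0.10 (-0.22 to 0.42) and Nf1 by 0.28 (-0.06 to 0.62). For Mras and Nf1 the overlap came only through JB6 monolayer replicate 1, an array of raised 3′ signal.

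In colonies the arrays of the lines lay apart for 4 of the 6: Rras2, Rras and Nras were higher and Mras lower in RT101 colonies. By limma, again a different measure, 43.3% of all genes differed (22.7% higher and 20.7% lower in RT101). The share of all genes lying apart was not counted here either. Rras averaged 8.84 ± 0.05 in RT101 colonies and 7.88 ± 0.09 in JB6 colonies (SD, n = 3 each), a difference of 0.96 (SE 0.09). Mras averaged 5.91 ± 0.19 in RT101 colonies and 6.67 ± 0.29 in JB6 colonies, a difference of -0.76 (SE 0.13).

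Nras averaged 7.70 ± 0.06 in RT101 colonies and 7.33 ± 0.06 in JB6 colonies, a difference of 0.37 (SE 0.09), with 0.53 and 0.48 on its other probe sets. Nf1 averaged 5.39 ± 0.13 in RT101 colonies and 5.81 ± 0.28 in JB6 colonies, a difference of -0.41 (SE 0.14). The Nf1 arrays overlapped, and the difference was -0.27 without JB6 colonies replicate 2, the high array.

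Rasa1 differed by -0.05 in colonies (95% interval -0.29 to 0.18), with overlapping arrays. This difference was 0.05 without JB6 colonies replicate 3 and 0.10 with the mean of the probe sets, and the other probe sets gave 0.30 and 0.06. The direction of Rasa1 between colony types is therefore not settled, whereas each of its 3 probe sets was lower in RT101 monolayers.

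**Figure D3:**
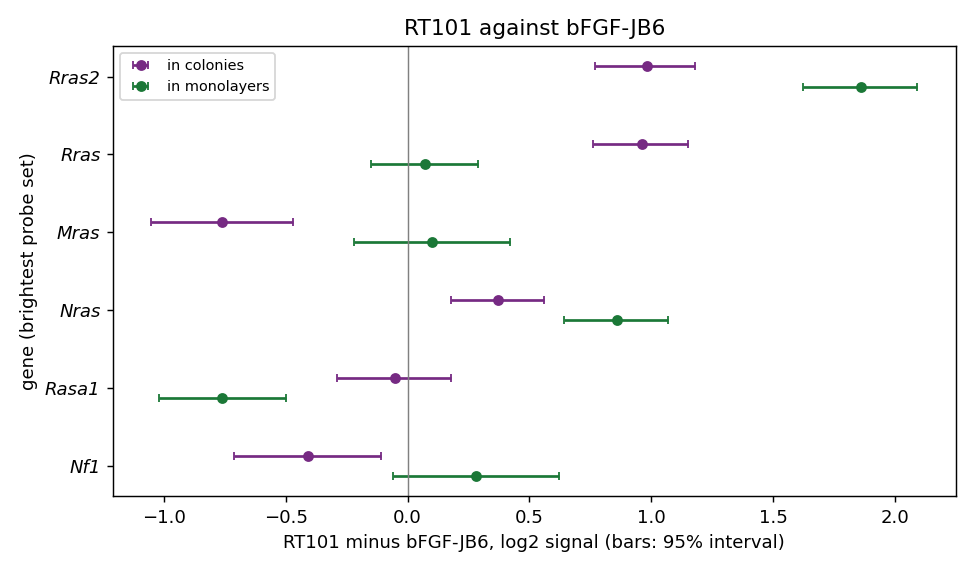
Log2 difference, RT101 minus JB6 (bFGF), of the brightest probe set of each measured member in colonies and in monolayers, with 95% intervals of the fit, as a description with no test. Rras2 lies at 1.86 in monolayers and 0.98 in colonies; Rras lies at 0.96 in colonies and 0.07 in monolayers.

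The other genes of the pathway were described from lists by role, of which 80 of 96 genes had a probe set. The lists were chosen with earlier results of these data known. Their counts, set beside the shares of all genes, are therefore a description with no test of the lists. In RT101 colonies 14 rose and 14 fell, 35% of the 80, where limma called 32.4% of all genes (17.0% higher and 15.4% lower). In JB6 colonies 9 rose and 20 fell, 36.2%, where 29.4% of all genes were called (14.1% higher and 15.3% lower). The change itself differed between the lines for 25 of the 80 genes, 31.2%, where 27.7% of all genes differed (15.0% upward and 12.7% downward). Without RT101 monolayer replicate 1 the RT101 count was 18 in all.

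Among 21 other GTPases of the Ras branch, 3 rose and 3 fell in RT101 colonies, and 3 rose and 4 fell in JB6 colonies. The list's median change was -0.08 in RT101 and -0.06 in JB6 cells, against -0.01 and 0.03 over all genes. Rerg, an estrogen-regulated growth-inhibitory GTPase in human breast cells, rose in both: it averaged 6.29 in RT101 colonies against 4.59 in RT101 monolayers (limma 1.70, adjusted p = 1.11e-06), and 3.92 in JB6 colonies against 3.34 in JB6 monolayers (0.58, limma adjusted p = 0.00468). The JB6 values of Rerg lie near the bottom of the arrays.

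Rit1, a Ras-related GTPase, rose in RT101 colonies by 0.44 (limma adjusted p = 0.00326). In JB6 colonies Rap2a, a Rap GTPase with roles in cell spreading and adhesion, fell by 0.60 (limma adjusted p = 0.00171; -0.35 with the mean of its probe sets). Rala, which acts in exocytosis, gave -0.52 in RT101 colonies (limma adjusted p = 0.000741) and -0.46 in JB6 colonies (limma adjusted p = 0.00107). Rap2b fell by 1.06 in JB6 colonies (limma adjusted p = 0.000111). These values are from the brightest probe set. The mean of each gene's probe sets gave -0.09 for Rala in RT101 colonies (limma adjusted p = 0.459) and -0.21 for Rap2b (0.0512). For Rala in JB6 colonies that mean had a limma adjusted p of 0.987, and 1 other Rala probe set was called in the opposite direction. The Rala and Rap2b calls thus rest on the probe set. With the mean of their probe sets Rit1 (0.37, limma adjusted p = 0.0108) and Rap2a (limma adjusted p = 0.0287) kept their calls.

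Among 13 exchange factors and adaptors, 2 rose and 3 fell in RT101 colonies (median 0.04), and 1 rose and 1 fell in JB6 colonies (median 0.07). The RT101 count of 5 was 3 without either RT101 monolayer array, and the JB6 count of 2 was 0 to 1 without any 1 of the JB6 arrays other than colonies replicate 3, and 1 without RT101 colonies replicate 2. Both Sos genes, whose products load Ras with GTP downstream of receptor tyrosine kinases, fell in RT101 colonies. Sos1 spanned 5.28 to 5.61 in RT101 colonies and 6.51 to 6.59 in RT101 monolayers (limma -1.12, adjusted p = 0.000164), and Sos2 spanned 7.27 to 7.58 and 8.53 to 8.58 in the same groups (limma -1.11, adjusted p = 0.000116). In JB6 colonies Sos1 gave 0.18 and Sos2 -0.36, neither past the threshold. With the mean of its probe sets, Sos1 gave -0.61 in RT101 colonies.

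Shc1, an adaptor between receptors and Grb2, rose by 0.74 in RT101 colonies (limma adjusted p = 0.00471), a call lost without RT101 monolayer replicate 1 (0.67, limma adjusted p = 0.0509). In JB6 colonies Gab2 gave 0.38 and the adaptor Grb2 -0.29 (limma adjusted p = 0.0196 and 0.0351). Gab2 lost its call without any 1 of JB6 monolayer replicate 1, JB6 colonies replicate 1 or JB6 colonies replicate 2, and the mean of the Grb2 probe sets gave 0.05.

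Among 9 other GTPase-activating proteins and their partners, 2 rose and 1 fell in RT101 colonies (median 0.15), and 2 rose and 4 fell in JB6 colonies (median -0.03). Rasal2, a RasGAP that acts as a tumour suppressor in mouse models, fell in both: it spanned 8.59 to 8.75 in RT101 colonies and 9.20 to 9.24 in RT101 monolayers (limma -0.55, adjusted p = 0.000665), and 7.42 to 7.6 in JB6 colonies with 8.42 to 8.66 in JB6 monolayers (limma -1.03, adjusted p = 1.3e-06). Rasa2, another RasGAP, fell by 0.61 in JB6 colonies (limma adjusted p = 0.000598).

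Rasa4, a calcium-responsive RasGAP, gave 0.49 in RT101 colonies and -0.45 in JB6 colonies (limma adjusted p = 0.0278 and 0.0267). Its JB6 value was -0.19 without the 2 arrays of raised 3′ signal, and its RT101 call was lost without either RT101 monolayer array or RT101 colonies replicate 1. Spred2, which recruits neurofibromin to the membrane, gave 0.30 in RT101 colonies (limma adjusted p = 0.0241), a call lost without either RT101 monolayer array (0.0678 and 0.141), without RT101 colonies replicate 2 or 3 (0.0909 and 0.0564), with median centring (0.0725), with a replicate block (0.061) and with the mean of its probe sets (0.18, limma adjusted p = 0.131).

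Among 17 effectors and kinases of the ERK cascade, 3 rose and 3 fell in RT101 colonies (median 0.02), and 3 rose and 2 fell in JB6 colonies (median 0.11). Ralgds, the Ras effector that activates Ral GTPases, rose in both: it averaged 7.26 in RT101 colonies against 5.49 in RT101 monolayers (limma 1.77, adjusted p = 2.32e-08), and 8.36 in JB6 colonies against 7.31 in JB6 monolayers (limma 1.05, adjusted p = 1.42e-06). Rin1, a Ras effector that activates Rab5 and Abl kinases, fell in both: it averaged 7.23 in RT101 colonies against 8.90 in RT101 monolayers (limma -1.68, adjusted p = 2.14e-07), and 7.03 in JB6 colonies against 8.19 in JB6 monolayers (limma -1.16, adjusted p = 3.23e-06).

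Rassf1, a Ras-association domain protein with a tumour suppressor isoform, fell in RT101 colonies, to 8.36 against 9.42 in RT101 monolayers (limma -1.06, adjusted p = 5.5e-07). It gave -0.07 in JB6 colonies, and the difference between the lines passed (limma -0.99, adjusted p = 2.24e-05). Ksr1, the scaffold of the Raf, MEK and ERK kinases, rose by 0.74 in JB6 colonies (limma adjusted p = 0.000186).

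Among 11 enzymes and chaperones of Ras lipid modification and trafficking, 4 rose and 1 fell in RT101 colonies (median 0.23), a count of 5 that was 3 without either RT101 monolayer array or without RT101 colonies replicate 1 or 2. In JB6 colonies 2 fell and none rose by limma (1 rose and 2 fell at an unadjusted p of 0.05), with a median of 0.02. Abhd17a, a depalmitoylase of Nras in human cells, rose to 9.31 in RT101 colonies against 8.45 in RT101 monolayers (limma 0.86, adjusted p = 2.98e-05) and fell to 9.08 in JB6 colonies against 9.62 in JB6 monolayers (limma -0.55, adjusted p = 0.000678).

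Abhd17c, its paralog, and Pde6d, a chaperone of farnesylated Ras, rose in RT101 colonies by 0.61 and 0.69 (limma adjusted p = 0.00093 and 0.000186). Zdhhc9, part of the palmitoyltransferase of Hras and Nras, fell in both: limma gave -0.50 in JB6 colonies (adjusted p = 0.000665) and -0.34 in RT101 colonies (adjusted p = 0.0167).

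Among 9 genes commonly used as readouts of ERK signalling, 3 fell and none rose in RT101 colonies by limma (5 fell and none rose at an unadjusted p of 0.05), with a median of -0.34. In JB6 colonies 7 fell and none rose (the same counts at an unadjusted p of 0.05), with a median of -0.68, where 15.3% of all genes fell. The JB6 count was 6 with the mean of each gene's probe sets. Spry4 (limma -0.75, adjusted p = 0.0472) lost its call there (-0.63, limma adjusted p = 0.161). Ccnd1 (cyclin D1) spanned 9.99 to 10.61 in JB6 colonies and 11.94 to 12.10 in JB6 monolayers (limma -1.68, adjusted p = 6.95e-07). In RT101 cells it lay at 10.09 to 10.34 in colonies against 10.43 to 10.63 in monolayers (limma -0.34, adjusted p = 0.109). These are values of the brightest of 3 Ccnd1 probe sets. Their mean gave -1.62 in JB6 colonies, with the RT101 change 1.14 higher, so the RT101 change was downward by that summary too.

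Dusp6, the ERK phosphatase induced by ERK itself, fell in both, by 0.68 in RT101 colonies (limma adjusted p = 7.6e-05) and by 1.34 in JB6 colonies (limma adjusted p = 7e-08). Spry2, a feedback inhibitor of receptor tyrosine kinase signalling, fell by 0.44 in RT101 colonies (limma adjusted p = 0.0105; 0.103 without RT101 monolayer replicate 1) and by 0.91 in JB6 colonies (2.26e-05; -0.48 with the mean of its probe sets). Epha2, an ephrin receptor, fell in both: limma gave -1.77 in RT101 colonies (adjusted p = 1.19e-07) and -0.67 in JB6 colonies (adjusted p = 0.000371). The RT101 count of 3 was 5 with the mean of each gene's probe sets, with median centring, without JB6 colonies replicate 3 or without both arrays of raised 3′ signal, and 6 with only the RT101 groups fitted.

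**Figure D4:**
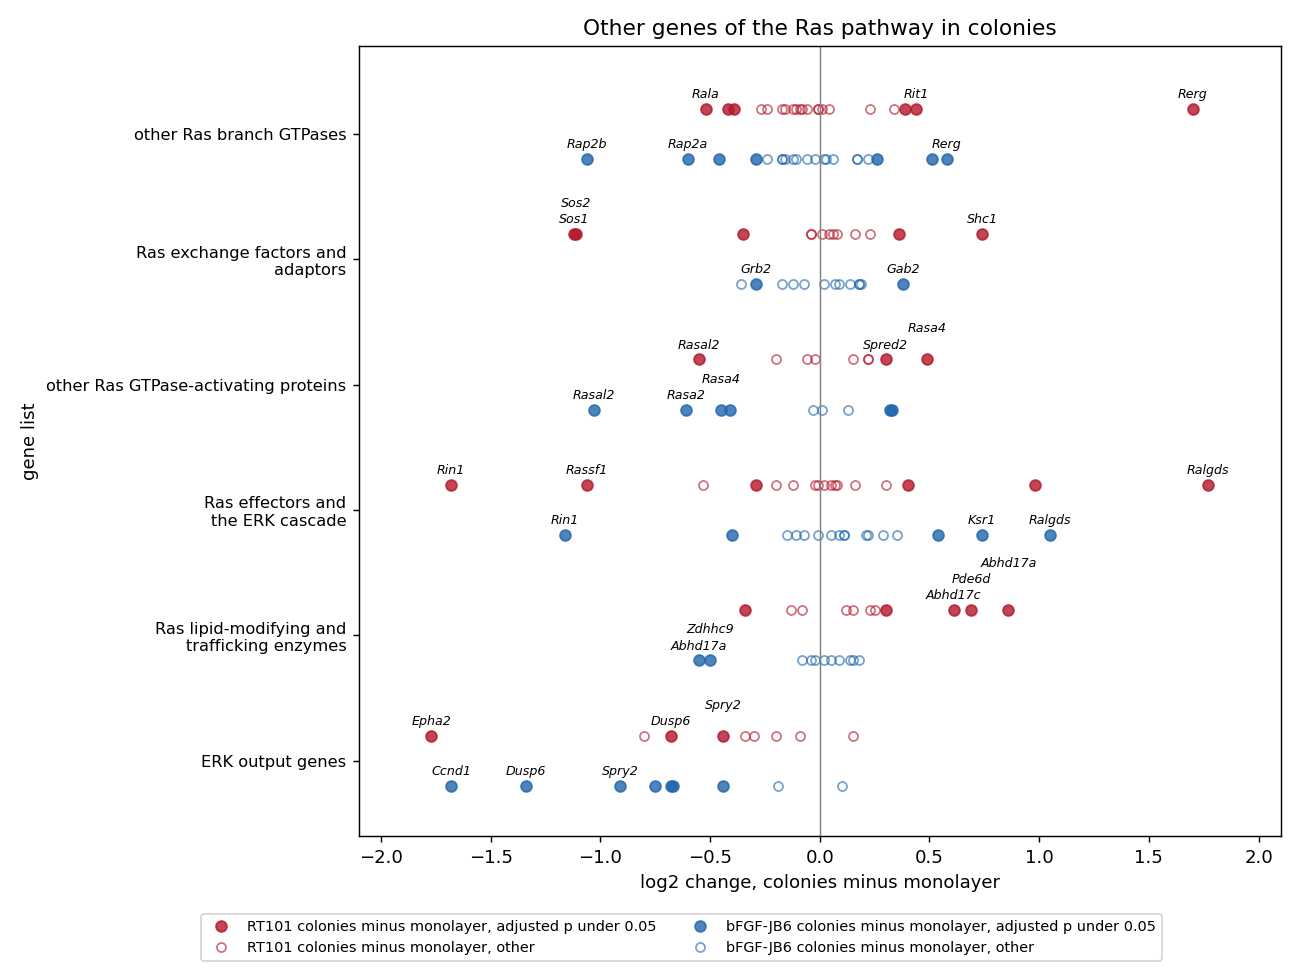
Log2 change, colonies minus monolayer, of the measured genes of 6 Ras pathway lists in RT101 and JB6 (bFGF) cells; filled points passed a limma adjusted p of 0.05 and up to 3 of them per list and line are named. The ERK output genes include Ccnd1 at -1.68 in JB6 and Epha2 at -1.77 in RT101 colonies, and Ralgds lies at 1.77 in RT101 colonies.

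Between the lines, 43 of the 80 pathway genes differed in monolayers (19 higher and 24 lower in RT101, 53.8%), where limma called 44.4% of all genes (23.2% higher and 21.2% lower). In colonies 44 differed (17 higher and 27 lower, 55.0%), where it called 43.3% of all genes (22.7% higher and 20.7% lower). Of the 9 ERK readouts, 3 were higher and 5 lower in RT101 monolayers, with a median difference of -0.91 against 0.05 over all genes. RT101 monolayers were lower for Dusp6 (limma -1.32, adjusted p = 7.39e-08), Phlda1 (-1.49, 1.79e-08) and Ccnd1 (-1.49, 2.18e-06). The 3 higher ones, given for the full tally, were Etv5 (limma 1.16, adjusted p = 0.0046), Epha2 (0.68, 0.000386) and Spry2 (0.36, 0.0262). The Etv5 call was lost without RT101 monolayer replicate 2 (limma adjusted p = 0.0709), and that of Spry2 without RT101 monolayer replicate 1 (0.179) or JB6 monolayer replicate 1 (0.0986). Among the lower ones, Spry4 (limma -0.94, adjusted p = 0.0188) lost its call with the mean of its probe sets (0.0789). In colonies 1 of the 9 readouts was higher and 5 were lower in RT101 cells, with a median difference of -0.43. Spry2 was the higher one (limma 0.82, adjusted p = 2.23e-05). Epha2, higher in RT101 monolayers, was lower in RT101 colonies (limma -0.43, adjusted p = 0.00549), and Ccnd1 was not called there (limma -0.15, adjusted p = 0.445).

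Of the 13 exchange factors and adaptors, 3 were higher and 2 lower in RT101 monolayers, 38.5%, where limma called 44.4% of all genes. RT101 monolayers were higher for Sos2 (limma 1.35, adjusted p = 1.04e-05), Sos1 (0.84, 0.000985; 0.51 with the mean of its probe sets) and Shoc2, which acts with Mras on Raf, downstream of the switch (0.69, 6.27e-05). They were lower for the adaptors Grb2 (-0.54, limma adjusted p = 0.000887) and Shc1 (-0.46, 0.0479), the Shc1 call being lost without any 1 of the monolayer or RT101 colony arrays. In colonies RT101 cells remained higher for Sos2 (0.60, limma adjusted p = 0.00376) and Shoc2 (0.82, 4.65e-06). Sos1 gave -0.46 there (limma adjusted p = 0.0259), a call lost without JB6 colonies replicate 1 (-0.27, limma adjusted p = 0.119), RT101 colonies replicate 2 (0.0672) or RT101 colonies replicate 3 (0.105), and with the mean of its probe sets (0.126).

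Among the GTPase-activating proteins, Rasa3 was lower in RT101 cells in monolayers (limma -1.16, adjusted p = 2.56e-07) and in colonies (-1.68, 2.19e-09). Rasal2 was higher in both (0.67 in monolayers, limma adjusted p = 7.18e-05; 1.15 in colonies, 1.46e-07). Rasa4 was lower in RT101 cells in monolayers (limma -1.81, adjusted p = 4.87e-07) and in colonies (limma -0.86, adjusted p = 0.000186). Rasa2 was higher in RT101 cells in monolayers (limma 0.66, adjusted p = 0.000328) and in colonies (limma 1.5, adjusted p = 5.79e-08).

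Of the effectors and other GTPases, Ralgds was lower in RT101 cells in monolayers (limma -1.82, adjusted p = 6.23e-09) and colonies (-1.10, 2.97e-07). Rerg was higher in monolayers (limma 1.25, adjusted p = 9.37e-06) and colonies (2.37, 6.13e-09), and the kinase Braf was higher in monolayers (1.26, 0.000112). The Ras methyltransferase gene Icmt was lower in monolayers (limma -0.93, adjusted p = 0.000164) and colonies (-0.75, 0.00039), as was Golga7, the partner of Zdhhc9 (-0.95, 3.2e-06, and -0.68, 2.69e-05).

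The genes whose signals were most like that of Rras2 were sought among 2866 genes whose group means spanned at least 1. Over the 11 arrays, which share cell lines and growth forms, Pearson's r with Rras2 was 0.994 for Dis3 (an exosome ribonuclease), 0.991 for Myc (a growth-promoting transcription factor), 0.991 for Ctps (CTP synthase), 0.990 for Mybbp1a (a nucleolar protein) and 0.990 for Steap1 (a metalloreductase family member). Myc averaged 7.54 ± 0.13 in RT101 colonies against 9.62 ± 0.24 in RT101 monolayers, and 6.82 ± 0.20 in JB6 colonies against 7.88 ± 0.16 in JB6 monolayers. Steap1 differed by -2.03 in RT101 and -1.23 in JB6 cells, near the -2.16 and -1.28 of Rras2. These genes were picked for their likeness, so the correlations carry no test.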

How the data were processed

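The deposited table holds log2 signals of 22690 probe sets on 11 arrays, made by the authors with RMA per the submitters' processing notes; the array's build and the RMA software version are not given in the sources used here. Control probe sets (64) and those annotated to several genes (691) or none (1555) in GEO's platform annotation were left out, and each of 12393 genes was taken as its brightest probe set over all arrays. All 4 groups entered 1 limma 3.58.1 fit (lmFit and eBayes, R 4.3.3, no covariate, 7 residual degrees of freedom), with Benjamini-Hochberg adjustment over all genes and a threshold of 0.05; the procedure was tested on simulated data. The number of arrays limits the precision.

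The members and the pathway lists were chosen with earlier results of these data known. The members therefore have no test in any comparison, and the counts of the lists are a description. The genes to name were all members, up to 3 called genes of each list and contrast with the largest absolute change, and the 5 genes most correlated with Rras2. For the comparisons between the lines only part of the genes picked this way are given in the text. Some further values are given to complete a tally or to show both lines or growth forms. The 16 listed pathway genes without a single-gene probe set were not analysed here. RefSeq promoters (GRCm38.p6) were matched by symbol for all 7 members, Rras having 3 start windows.

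Replicate numbers come from the sample titles; the descriptions letter the samples A to C, and give RT101 monolayers 1 and 2 the letters B and C. Deviations from group means correlated by 0.32, 0.111 and 0.225 between same-numbered RT101 and JB6 colonies, all above 0.1, so those numbers were treated as pairs in an added fit; over all 15 same-numbered pairs the correlations ran from -0.336 to 0.32 (5 above 0.1), and over 15 same-lettered pairs from -0.276 to 0.32 (8 above 0.1). Alternatives were other normalizations, probe-set summaries, level filters, replicate blocks and leaving out arrays. Plots used matplotlib 3.10.9 (Python 3.11.15).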

Additional observations from a re-analysis of the deposited data

Results flagged for a closer look

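The following pathway genes differed in their colony change between the lines (limma test of the difference, RT101 minus JB6, where 27.7% of all genes passed). Among GTPases and exchange factors, Rap2b gave 1.29 (0.23 in RT101 and -1.06 in JB6 colonies), Rerg 1.12, Sos1 -1.29 and Sos2 -0.75. Among GTPase-activating proteins and partners, Rasa4 gave 0.95, Rasa2 0.83 and Spred1 0.56. Among effectors, Rassf1 gave -0.99, Braf -0.88 (-0.53 in RT101 and 0.35 in JB6 colonies, neither passing on its own) and Rgl1 0.76. With the mean of each gene's probe sets the difference was 0.47 for Rap2b, -0.78 for Sos1 and 0.91 for Spred1.

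Of the lipid-modifying enzymes and chaperones, Abhd17a gave 1.40, Abhd17c 0.69 and Pde6d 0.54. Of the ERK readouts, Ccnd1 gave 1.34, Epha2 -1.10 and Dusp6 0.66. The calls for Sos2, Spred1, Braf, Rgl1 and Pde6d were each lost in at least 1 alternative: without RT101 monolayer replicate 1 the limma adjusted p was 0.0713 for Sos2, 0.0747 for Braf and 0.084 for Pde6d, without RT101 monolayer replicate 2 it was 0.071 for Spred1, and with the mean of its probe sets it was 0.0573 for Rgl1.

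On the brightest probe set, all Rras and Rasa1 colony arrays lay above the monolayer arrays in RT101 cells and below them in JB6 cells. The difference between the lines was 0.89 for Rras (0.72 in RT101 and -0.17 in JB6 colonies) and 0.71 for Rasa1 (0.14 and -0.57), and it was not tested. As a description with no test, the smaller changes had 95% intervals of -0.37 to 0.02 (Rras in JB6 cells) and -0.12 to 0.40 (Rasa1 in RT101 cells). On the other 2 Rasa1 probe sets the RT101 groups overlapped.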

How the results depend on the processing

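Testing all probe sets separately gave 6451 calls for RT101 colonies, 5986 for JB6 colonies, 5260 for the difference of the changes, 9093 for the lines in monolayers and 8965 in colonies, against 4013, 3642, 3430, 5504 and 5372 genes, because more features are tested. The Rras2 change in JB6 colonies was -1.14 with the mean of its probe sets. Leaving out 1 array at a time, the Rras2 change ranged from -2.22 to -2.1 in RT101 and from -1.35 to -1.20 in JB6 colonies; genes called ranged over 3050 to 4548, 2995 to 3833, 2666 to 3664, 4607 to 5898 and 4770 to 5558 in the same order of comparisons, and pathway genes over 18 to 33 (18 without RT101 monolayer replicate 1), 24 to 28, 19 to 28, 35 to 45 and 38 to 46. Directions turned for Grb2 in JB6 colonies (0.05 with the mean of its probe sets), for Rras between monolayers (-0.07 without RT101 monolayer replicate 2 and 0.21 without replicate 1) and for Rasa1 between colonies (0.10 with the mean of the probe sets, 0.05 without the 2 arrays of raised 3′ signal and 0.05 without JB6 colonies replicate 3, the leave-one-out range being -0.13 to 0.05); the cause was not tested. With the title number as a replicate block, 3887 genes were called in RT101 colonies and 3550 in JB6 colonies; with the description letter as the block, 3912 and 3686. The fit of the colonies alone with a replicate block, chosen after seeing the data, called 5379 genes between the lines. It lost the calls of 4 pathway genes (Dab2ip, Gab2, Rasl11b and Rce1). Groups of 2 or 3 arrays limit all of these values.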
